A study of Mus musculus with 16 samples.

Results

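The immediate early genes described here are the 10 genes *Fos*, *Fosb*, *Jun*, *Junb*, *Egr1*, *Atf3*, *Klf2*, *Klf4*, *Ier2* and *Dusp1*, out of 31274 genes with deposited values in the seminal vesicle (SV). They were taken as a named set of fast-responding genes and selected on values of these same samples: the set was chosen with *Klf2* seen to be higher with DES in αERKO. All 10 had a mean above 1 FPKM (read pairs per gene, divided by exon length and library size) in at least 1 group, and were among the 15988 genes tested. RNA was sequenced from the SVs of 5-week-old C57BL/6 male mice in 4 groups of 4 samples each. WT-veh mice were wild type and received corn oil as neonates, and WT-DES mice were wild type and received diethylstilbestrol (DES, a synthetic oestrogen) under the skin, 2 µg daily for each pup from day 1 to day 5. αERKO-veh and αERKO-DES mice (aERKO in the labels) had the same injections and carried a disrupted *Esr1*, the gene of oestrogen receptor α (ERα), in every tissue from conception, so that any change may arise inside or outside the SV. The injections ended weeks before the SV was dissected free of the anterior prostate. The methods describe RNA of individual mice for WT-veh and both αERKO groups. For WT-DES they describe pools of mice, fewer in number than the 4 WT-DES samples, which the labels of these samples do not resolve. The comparisons ask how the genes stood after neonatal DES in WT, whether they stood otherwise in αERKO, and how αERKO itself compared with WT.

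Immediate early genes are transcribed within minutes of a stimulus, without the need for new protein, and their mRNAs are short-lived. Growth factors, stress and cyclic AMP act on them through MAP kinases and the factors SRF, ELK and CREB that already sit at their promoters. *Fos*, *Fosb*, *Jun* and *Junb* encode the partners that make up the dimeric factor AP-1, and *Atf3* encodes a related leucine zipper protein that can repress the genes it binds. *Egr1* and the Krüppel-like genes *Klf2* and *Klf4* encode zinc finger factors, *Klf2* being best known from endothelium under flow and resting lymphocytes. *Ier2* encodes a nuclear protein, and *Dusp1* encodes a phosphatase that switches MAP kinases off again. Oestrogen is known to raise *Fos*, *Jun* and *Egr1* quickly in the uterus.

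Promoters were read from RefSeq (GRCm38.p6), as the 250 bases before and the 50 from the annotated start, for the 8 members that matched. Those of *Fos* (chr12:85473640-85473939, plus strand) and *Dusp1* (chr17:26508423-26508722, minus strand) are shown for members that rose with DES in WT, that of *Atf3* (chr1:191183284-191183583, minus strand) for the member that fell, and that of *Klf2* (chr8:72318812-72319111, plus strand) for the member high in αERKO-DES. They run 5′ to 3′ on the strand of the gene, and capitals mark TGACG on either strand (the core of a CREB and ATF site, read CGTCA on the other strand) and TATAAA, found close to the start of many inducible genes.
Fos: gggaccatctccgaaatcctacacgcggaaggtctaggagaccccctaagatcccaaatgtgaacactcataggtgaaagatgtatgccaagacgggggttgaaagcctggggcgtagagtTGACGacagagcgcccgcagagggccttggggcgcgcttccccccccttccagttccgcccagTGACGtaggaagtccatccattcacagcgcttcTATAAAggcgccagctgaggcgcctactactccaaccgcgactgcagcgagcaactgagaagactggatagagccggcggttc
Dusp1: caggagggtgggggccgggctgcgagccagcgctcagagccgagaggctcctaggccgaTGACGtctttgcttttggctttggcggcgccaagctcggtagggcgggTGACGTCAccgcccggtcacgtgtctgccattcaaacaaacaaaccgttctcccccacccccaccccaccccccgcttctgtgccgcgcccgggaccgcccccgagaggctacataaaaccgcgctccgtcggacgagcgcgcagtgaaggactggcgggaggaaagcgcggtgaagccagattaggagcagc
Atf3: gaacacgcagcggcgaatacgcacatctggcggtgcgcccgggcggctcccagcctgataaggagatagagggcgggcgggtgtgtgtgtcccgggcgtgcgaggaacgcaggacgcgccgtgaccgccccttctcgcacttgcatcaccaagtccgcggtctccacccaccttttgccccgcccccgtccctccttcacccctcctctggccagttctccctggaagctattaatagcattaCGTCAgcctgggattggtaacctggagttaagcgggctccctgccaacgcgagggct
Klf2: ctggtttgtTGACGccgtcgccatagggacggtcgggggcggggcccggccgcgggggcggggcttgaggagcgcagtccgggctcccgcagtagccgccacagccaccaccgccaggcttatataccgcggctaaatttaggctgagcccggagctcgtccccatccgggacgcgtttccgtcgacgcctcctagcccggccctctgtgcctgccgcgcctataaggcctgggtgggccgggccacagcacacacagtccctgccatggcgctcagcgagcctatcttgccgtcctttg
TGACG stood in 7 of the 8 promoters, all but that of *Jun*, and in 20.8% of all 32851 mouse promoter windows of this length. The longer TGACGTCA, which contains TGACG on both strands, was found in *Dusp1* alone among them (143 bases before the start) and in 1.79% of windows. TATAAA lay 33 bases before the start of *Fos* and at the start of *Junb*, against 13.6% of windows with it. GGGCGG, a GC box, stood in 7 of 8 (all but *Junb*) and in 35.7% of windows, and the MEF2 site in 3 of 8 (*Jun*, *Atf3* and *Klf2*) and in 3.19%. None of the 8 windows held a CArG box (the SRF site, in 1.63% of windows), TGANTCA (the AP-1 site, in 7.81%, and a palindrome with N any base) or a full oestrogen response element (in 0.07%). All of these were searched on both strands. A match describes letters in the window only, and says nothing of factors bound there.

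The check of genotype and tissue came first. *Esr1* averaged 3.87 ± 0.80 FPKM in WT-veh, 14.3 ± 4.59 in WT-DES, and in αERKO 1.52 ± 0.20 with vehicle and 1.30 ± 0.33 with DES (mean ± SD, n = 4 throughout), with no αERKO sample reaching the lowest WT sample. The 8 SV secretion markers summed to 49395 to 57117 FPKM in WT-veh and 2439 to 7933 in WT-DES, against 29078 to 46088 and 32305 to 61010 in αERKO with vehicle and DES, so that they were high in all groups but WT-DES. FPKM hold no read counts and the depth is unknown, and all genes together gave 375207 to 437619 FPKM in WT-DES and 479045 to 652708 in the other 12 samples. WT-DES sample 1 stood apart from the other 3 of its group in its smooth muscle markers, which summed to 3179 FPKM against 794, 1037 and 1198. Its 14 leukocyte markers were split: *S100a8*, *S100a9* and *Itgam*, of neutrophils and other myeloid cells, were highest in this sample (371, 415 and 24.1 FPKM, against at most 85.5, 97.4 and 13.2), 7 others, of T and B cells, were lowest in it, and the pan-leukocyte *Ptprc* was at 22.1 against 21.5 to 43.5 FPKM.

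In WT, neonatal DES left 6 of the 10 immediate early genes higher and 1 lower at week 5. *Fos*, *Egr1*, *Klf4*, *Junb*, *Dusp1* and *Jun* rose to 1.65 to 3.29 times their mean FPKM in WT-veh, and *Atf3* fell to 40.5% of its WT-veh level. A gene was called changed at an adjusted p of at most 0.05 (limma on log2(FPKM + 1), Benjamini-Hochberg over all genes tested), with a 1.5-fold ratio of mean FPKM. Such calls were common after DES in WT, with 28.9% of all genes tested called higher and 23.9% lower, against 60% and 10% of the members. The samples of WT-veh and WT-DES did not overlap for 7 of the 10 members, against 66.7% of all genes tested. Without WT-DES sample 1, 5 members were called, *Klf4* and *Dusp1* no longer being among them.

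**Figure D1:**
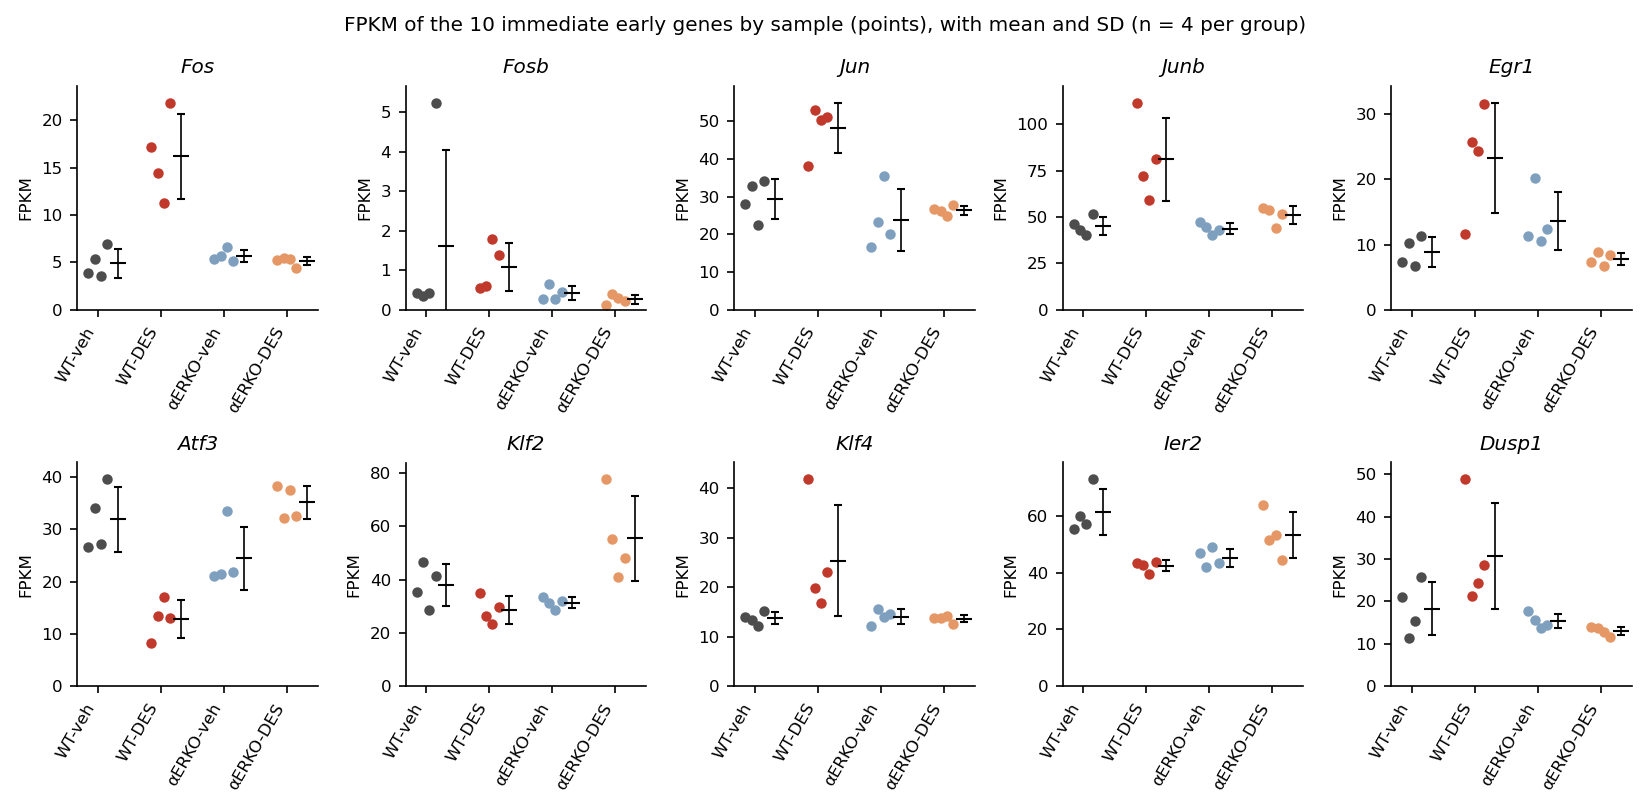
FPKM of each immediate early gene (linear axes from 0, 1 scale per gene) in the 16 samples. Points are samples 1 to 4 of each group from left to right, and the bar beside them is the mean with SD (n = 4, cut off at 0 for Fosb in WT-veh). Fos, Jun, Junb, Egr1 and Klf4 lie higher in all WT-DES than in all WT-veh samples, Atf3 lies lower, and Klf2 is highest in αERKO-DES, the values on which it was chosen.

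Of the 4 Fos and Jun members, *Fos* (GRCm38 chr12:85473890-85477273, plus strand) had the largest change. It was at 3.85, 5.32, 3.61 and 6.92 FPKM in WT-veh and at 17.2, 14.4, 11.3 and 21.9 in WT-DES. The lowest WT-DES sample thus lay well above the highest WT-veh sample, and the log2 change was 1.54 (standard error, SE, 0.18, limma adjusted p = 2.62e-06). In αERKO, *Fos* was at 5.34, 5.70, 6.58 and 5.12 FPKM with vehicle and at 5.29, 5.47, 5.32 and 4.46 with DES, and all 8 of these samples fell within the range of WT-veh.

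*Jun* (chr4:95049034-95052222, minus strand) was at 28.0, 32.8, 22.4 and 34.0 FPKM in WT-veh and at 38.3, 53.1, 50.4 and 51.2 in WT-DES, a log2 change of 0.71 (SE 0.18, limma adjusted p = 0.00284). Sample 1 of WT-DES was the lowest of its group, yet above all WT-veh samples. In αERKO-veh it ranged from 16.6 to 35.4 FPKM (23.9 ± 8.17) and in αERKO-DES from 24.9 to 27.7 (26.3 ± 1.17), so the DES samples sat inside the wider spread of the vehicle samples. *Jun* overlaps its antisense transcript gene *Junos* and, since the sources used here do not say whether fragments were counted by strand, reads of both may have been counted together.

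*Junb* (chr8:84974484-84978718, minus strand), a Jun protein that restrains as well as aids AP-1, was at 46.1, 43.2, 40.2 and 51.6 FPKM in WT-veh and at 112, 72.2, 59.2 and 81.2 in WT-DES. The groups did not overlap, sample 1 of WT-DES was far above the others, and the log2 change was 0.79 (SE 0.15, limma adjusted p = 0.000171). It stayed between 40.0 and 54.8 FPKM in all αERKO samples. It shares its place with *Prdx2* on the other strand, which was at 247 ± 17.6 FPKM in WT-veh and 144 ± 7.89 in WT-DES and so went the other way.

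*Fosb* (chr7:19302696-19310051, minus strand) was the least abundant member in every group. Its values of 0.43, 0.34, 0.42 and 5.25 FPKM in WT-veh and 0.56, 0.61, 1.80 and 1.39 in WT-DES gave a log2 change of 0 (SE 0.38, limma adjusted p = 0.994). WT-veh sample 4 was far above all other samples, and without it the change was 0.54 and was called (limma adjusted p = 0.0217), so *Fosb* in WT turns on 1 library. In αERKO it was between 0.28 and 0.66 FPKM with vehicle and between 0.13 and 0.39 with DES.

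The make-up of the AP-1 transcripts differed in the WT-DES samples when the sister genes were added to the sums. The Fos family (*Fos*, *Fosb*, *Fosl1* and *Fosl2*) summed to 13.2 to 21.4 FPKM in WT-veh and 34.6 to 61.0 in WT-DES, and in αERKO to 16.3 to 20.3 with vehicle and 14.6 to 16.9 with DES. The Jun family (*Jun*, *Junb* and *Jund*) summed to 161 to 229 FPKM in WT-veh, with 182 to 215 in WT-DES, which overlapped, and to 157 to 236 in αERKO. Within it, *Jund*, the Jun gene least tied to stimuli, made up 61.1% to 62.7% in WT-veh and 30.4% to 39.7% in WT-DES, against 57.5% to 65.5% in αERKO. The share of *Fos* in the Fos family overlapped between WT-veh (27.4% to 35.9%) and WT-DES (28.1% to 39.6%), and *Fosl2* also rose, by a log2 change of 1.61 (limma adjusted p = 2.29e-07). The sums and shares were chosen after values were seen and carry no test.

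**Figure D2:**
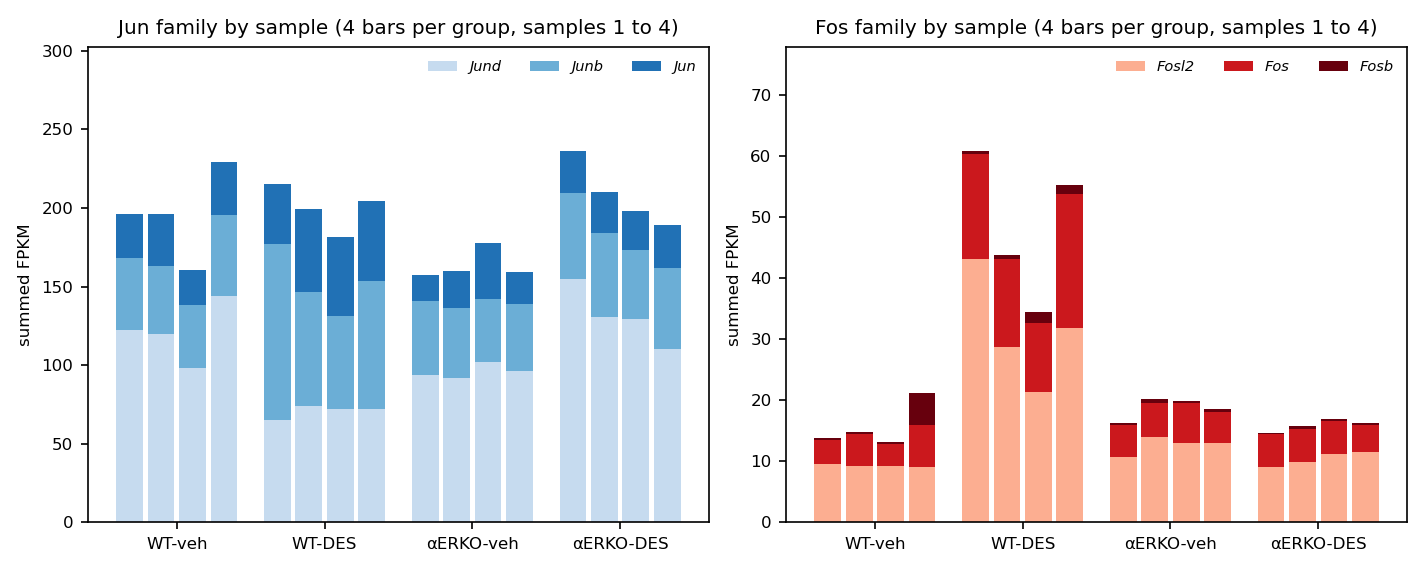
Summed FPKM of the Jun family (left) and Fos family (right) in each of the 16 samples, stacked by gene, with 4 bars per group for samples 1 to 4. Fosl1, at no more than 0.2 FPKM, is not drawn. The Fos family reaches 34.6 to 61.0 FPKM in WT-DES and no more than 21.4 elsewhere, and the Jund part of the Jun bars is smallest in WT-DES.

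*Atf3* (chr1:191170296-191218039, minus strand) went against *Fos*, *Jun* and *Junb*. It was at 26.7, 34.1, 27.2 and 39.6 FPKM in WT-veh and at 8.18, 13.4, 17.1 and 13.1 in WT-DES, with no overlap and a log2 change of −1.26 (SE 0.19, limma adjusted p = 3.02e-05). In αERKO it was at 21.0, 21.6, 33.5 and 21.9 FPKM with vehicle and at 38.4, 32.2, 37.5 and 32.6 with DES, where 2 of the 4 DES samples lay above all vehicle samples. Its span holds the small gene *Gm24748*, so reads of the latter may be included. The ratio of *Atf3* to *Fos*, picked after values were seen, was 5.72 to 7.54 in WT-veh but 0.48 to 1.51 in WT-DES, and 3.78 to 5.10 and 5.88 to 7.31 in αERKO with vehicle and DES. *Atf3* thus exceeded *Fos* by several times in all samples but those of WT-DES, on FPKM, which is per length.

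*Egr1* (chr18:34859823-34864984, plus strand), which carries growth signals to many target genes, was at 7.30, 10.2, 6.65 and 11.3 FPKM in WT-veh and at 11.6, 25.8, 24.4 and 31.6 in WT-DES. Sample 1 of WT-DES barely exceeded the highest WT-veh sample, and the log2 change was 1.25 (SE 0.26, limma adjusted p = 0.000524). In αERKO-veh it was at 11.3, 20.2, 10.5 and 12.5 FPKM and in αERKO-DES at 7.30, 8.79, 6.75 and 8.44, so the αERKO-DES samples all lay below those of αERKO-veh. *Egr1* was set beside the vessel markers after its values were seen. The 12 endothelial markers summed to 328, 477, 425 and 522 FPKM in WT-DES and to 185, 269, 179 and 204 in αERKO-veh, and in both groups the 4 samples ranked in the same order for these sums and for *Egr1*. In WT-veh (190 to 240 FPKM) and αERKO-DES (167 to 203) they did not. The adipose marker sums of αERKO-veh (568, 1498, 200 and 666 FPKM) also ranked in the order of *Egr1*, while those of WT-DES did not.

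**Figure D3:**
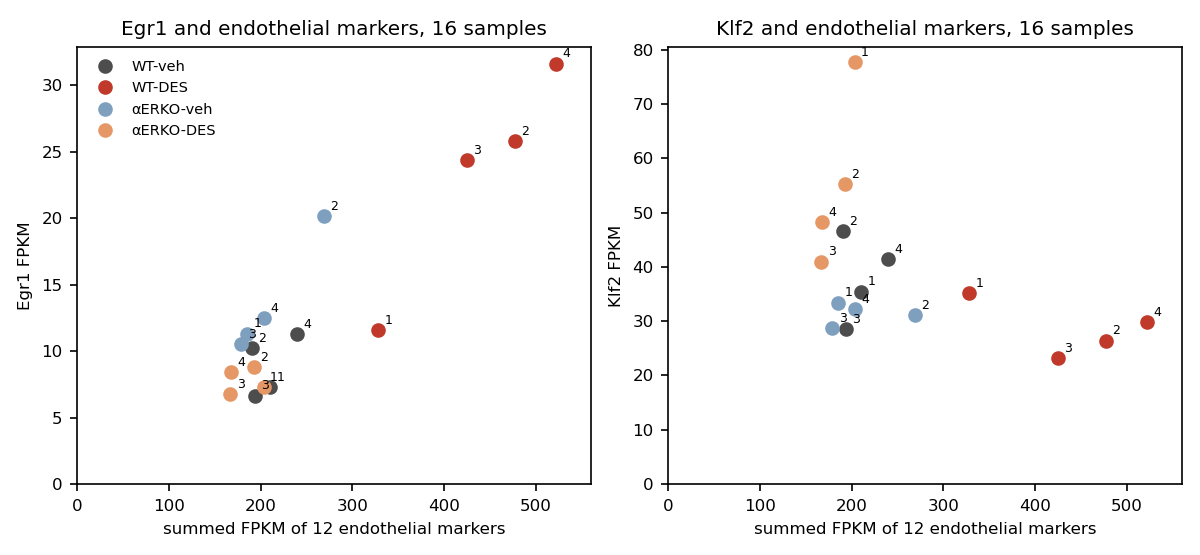
Egr1 (left) and Klf2 (right) in FPKM against the summed FPKM of 12 endothelial markers, with each of the 16 samples as a point numbered within its group. The 4 WT-DES samples have the highest marker sums (328 to 522). Egr1 is highest in 3 of them and in the αERKO-veh sample with the highest sum of its group (269), while Klf2 is highest in αERKO-DES at sums of 167 to 203.

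The Krüppel-like pair parted. *Klf4* (chr4:55527143-55532466, minus strand), known from barrier epithelia and smooth muscle, was at 14.1, 13.4, 12.3 and 15.2 FPKM in WT-veh and at 41.9, 19.8, 16.9 and 23.0 in WT-DES (log2 change 0.76, SE 0.19, limma adjusted p = 0.0023). All WT-DES samples were higher, but sample 1 carried much of the mean, and without it the log2 change was 0.5 and under the fold limit. In αERKO, *Klf4* held between 12.1 and 15.7 FPKM in all 8 samples. *Klf2* (chr8:72319033-72321656, plus strand) was at 35.5, 46.7, 28.6 and 41.4 FPKM in WT-veh and at 35.2, 26.4, 23.3 and 29.8 in WT-DES, groups that overlapped (log2 change −0.39, SE 0.18, limma adjusted p = 0.063, not called). In αERKO-veh it was at 33.4, 31.1, 28.8 and 32.2 FPKM, and in αERKO-DES at 77.8, 55.3, 41.0 and 48.2, which was 1.77 times αERKO-veh and 1.94 times WT-DES in the mean. These last values chose *Klf2* and are given without a test. All 4 αERKO-DES samples were above all αERKO-veh and all WT-DES samples, and sample 3 was below WT-veh samples 2 and 4.

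*Klf2* stood above *Klf4* by 2.33 to 3.48 times in WT-veh, 1.98 to 2.76 times in αERKO-veh and 2.87 to 5.63 times in αERKO-DES, while the ratio was 0.84 to 1.38 in WT-DES (picked after values were seen). In WT-DES sample 1 alone was *Klf4* the more abundant of the pair. All 6 genes listed as *Klf2* targets, of vessels and lymphocytes, were called higher in WT-DES, against 28.9% of all genes tested. Only 4 had a mean above 1 FPKM in WT-veh, among them the integrin gene *Itgb7* (log2 change 2.60, limma adjusted p = 8.14e-08). The other 2 were tested only through WT-DES. All 6 were called lower in αERKO-DES than in WT-DES, against 29.6% of all genes tested. The mean of *Klf2* itself, by which it was chosen, was higher in αERKO-DES than in WT-DES. Leukocyte and endothelial markers rose in WT-DES beside the 6 targets, as given below, and these targets also mark those cells.

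*Dusp1* (chr17:26505590-26562128, minus strand) was at 21.0, 11.3, 15.4 and 25.7 FPKM in WT-veh and at 48.9, 21.3, 24.3 and 28.7 in WT-DES, and these groups overlapped. Its log2 change of 0.71 (SE 0.24, limma adjusted p = 0.0142) was the least firm of those called, and without WT-DES sample 1 it was 0.46 and without WT-veh sample 2 it was 0.51 (limma adjusted p = 0.0549), neither called. In αERKO it was at 17.6, 15.6, 13.9 and 14.4 FPKM with vehicle and at 13.9, 13.7, 12.8 and 11.7 with DES. Its annotated span overlaps other genes, among them *Ergic1* on the other strand, which was lower in WT-DES (67.7 ± 13.4 FPKM) than in WT-veh (172 ± 10.4).

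*Ier2* (chr8:84661331-84662852, minus strand) was the most abundant member in WT-veh, at 55.4, 59.8, 57.0 and 72.9 FPKM, above all samples of the next, *Junb*. In WT-DES it was at 43.5, 42.8, 39.5 and 43.7 FPKM, below every WT-veh sample (log2 change −0.51, SE 0.10, limma adjusted p = 0.000353), but its ratio of 0.692 was short of the fold limit. This value depended on the scaling, being −0.11 after quantile normalization and −0.09 when samples were rescaled without the 20 most abundant genes. In αERKO it was at 46.8, 42.0, 48.8 and 43.2 FPKM with vehicle and at 63.7, 51.4, 53.1 and 44.3 with DES, groups that overlapped.

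The order of the members by level shifted with DES in WT. *Ier2*, *Junb* and *Klf2* led in WT-veh (61.2, 45.2 and 38.0 FPKM) and in αERKO-veh (45.2, 43.6 and 31.4), where *Ier2* and *Junb* were not separated. In WT-DES, *Junb* led at 81.0 ± 22.3 FPKM, with every sample above *Jun* (48.2 ± 6.73), and the following genes from *Jun* to *Atf3* (12.9 ± 3.65) were not separated from their neighbours in the order. In αERKO-DES, *Klf2* (55.6 ± 15.9) and *Ier2* (53.1 ± 8.01) led and overlapped, and *Fos* (5.13 ± 0.46) and *Fosb* (0.26 ± 0.11) were last. In WT-veh most members shared their high sample, while in the other groups no sample was the highest for more than 5 of the 10. WT-veh sample 4 was the highest of its group for 9 of the 10 members, all but *Klf2*. It also had the highest skeletal muscle marker sum of WT-veh (2612 FPKM, against 751 to 801). Its endothelial (240), epithelium (2302), adipose (1421) and heat shock (950 FPKM) sums were the highest of WT-veh too. Its leukocyte, smooth muscle, fibroblast and secretion sums were not. WT-DES sample 1 was the highest of its group for *Junb*, *Klf2*, *Klf4* and *Dusp1* and the lowest for *Fosb*, *Jun*, *Egr1* and *Atf3*. The part of muscle or other admixture in these levels was not tested.

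The change with DES differed between WT and αERKO for 6 of the 9 members tested. The test was the interaction, the log2 change of WT-DES over WT-veh less that of αERKO-DES over αERKO-veh. *Klf2* and all αERKO-DES against αERKO-veh differences are left untested, as that contrast guided the choice of genes. Of the 9, 4 were called with a positive and 2 with a negative difference, where 29.6% and 26.9% of all genes tested were. The positive ones were *Egr1* (1.94, SE 0.37, limma adjusted p = 0.000277), *Fos* (1.66, SE 0.26, limma adjusted p = 4.76e-05), *Dusp1* (0.93, SE 0.33, limma adjusted p = 0.022) and *Klf4* (0.80, SE 0.27, limma adjusted p = 0.0159). The negative ones were *Atf3* (−1.79, SE 0.27, limma adjusted p = 3.78e-05) and *Ier2* (−0.73, SE 0.14, limma adjusted p = 0.000378), and that of *Ier2* was not called under 4 alternatives, with values of −0.58 to −0.18. *Junb* differed by 0.58 (limma adjusted p = 0.0207), just under the fold limit, and was called under 14 of 28 alternatives. *Jun*, at 0.52 (SE 0.26, limma adjusted p = 0.0857), and *Fosb*, at 0.16 (SE 0.54, limma adjusted p = 0.802), did not pass. Without WT-DES sample 1, *Klf4* fell under the fold limit as well (0.54).

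**Figure D4:**
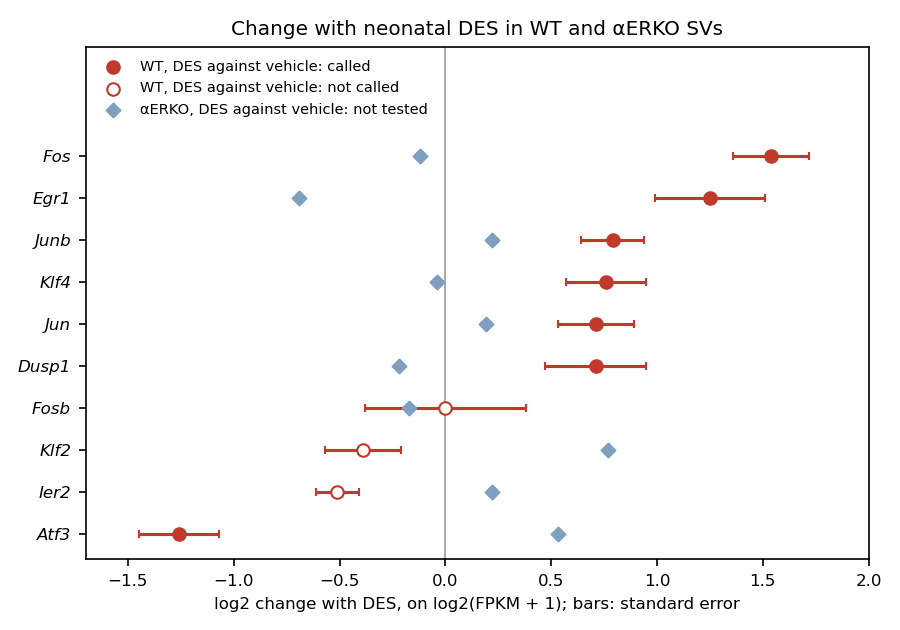
Log2 change with DES, on log2(FPKM + 1), of each immediate early gene in WT (circles, with standard error, n = 4 against 4; filled where called) and in αERKO (diamonds, shown without error or test because that contrast guided the choice of genes). Fos, Egr1, Junb, Klf4, Jun and Dusp1 lie at 0.71 to 1.54 in WT. The αERKO values run from −0.69 for Egr1 to 0.77 for Klf2.

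The ratio of mean FPKM in αERKO-DES to αERKO-veh was 0.903 for *Fos*, 0.625 for *Fosb*, 1.10 for *Jun*, 1.17 for *Junb*, 0.968 for *Klf4*, 0.847 for *Dusp1* and 1.18 for *Ier2*, all with overlapping samples. It was 0.575 for *Egr1* and 1.77 for *Klf2*, the members whose αERKO groups did not overlap, and 1.43 for *Atf3*. In this contrast 1.49% of all genes tested were called in either direction and 13.0% had groups that did not overlap, which are given for scale only.

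Set against WT-DES directly, αERKO-DES had 6 of 9 members lower and 1 higher, where 29.6% of all genes tested were lower and 23.7% higher. This comparison shares the WT-DES samples with that against WT-veh, so both move with any WT-DES library. *Fos* was lower by a log2 difference of −1.45 (SE 0.18, limma adjusted p = 4.07e-06), *Egr1* by −1.39 (limma adjusted p = 0.000201) and *Dusp1* by −1.11 (limma adjusted p = 0.000593). *Jun* (−0.84), *Klf4* (−0.77) and *Junb* (−0.63) were also lower, with limma adjusted p of 0.000744, 0.00203 and 0.00121, while *Atf3* was higher by 1.41 (SE 0.19, limma adjusted p = 9.09e-06). *Klf4* and *Junb* fell under the fold limit without WT-DES sample 1, at −0.51 and −0.46. *Ier2* was not called (0.31, limma adjusted p = 0.0132, ratio 1.25), nor was *Fosb* (−0.69, SE 0.38, limma adjusted p = 0.12), which was called under 4 of 29 alternatives, a pseudocount of 0.1 among them. WT-DES and αERKO-DES samples did not overlap for any of these 9 members, against 66.5% of all genes tested.

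For αERKO itself, without DES, none of the 10 members was called against WT-veh by limma, where 7.12% of all genes tested were. Of the 15988 genes tested, 6222 had an unadjusted limma p under 0.05, and of the 10 members 1 did. That was *Ier2*, at 73.8% of WT-veh (log2 difference −0.42, SE 0.10, limma adjusted p = 0.0117), every αERKO-veh sample lying below every WT-veh sample. That held for 17.1% of all genes tested, and the groups did not overlap, in either direction, for 29.7%. Its ratio was short of the fold limit, and the log2 difference was −0.19 with the length correction (limma adjusted p = 0.102) and −0.25 on rescaling without the 20 most abundant genes (limma adjusted p = 0.0358). *Egr1* had a ratio of 1.53, but with overlapping samples (13.6 ± 4.44 against 8.87 ± 2.24 FPKM, log2 difference 0.55, limma adjusted p = 0.133). It was called with sample weights and when WT-DES sample 1 was left out of the fit. *Fosb* was at 26.1% of WT-veh in the mean (limma adjusted p = 0.338), where WT-veh sample 4 stands out. These and the other 7, *Klf2* among them, had no call, and apart from *Ier2* and *Egr1* the members had limma adjusted p of 0.164 to 0.938, which does not show equal levels, and the αERKO-veh samples are shared with the contrast that chose *Klf2*.

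Markers of other cell types were counted beside these changes. In a whole tissue, more RNA per cell cannot be told apart from more cells of a type that express the gene. In WT-DES relative to WT-veh, 12 of 12 endothelial, 14 of 14 leukocyte, 7 of 8 fibroblast and 7 of 10 adipose markers were called higher, and 6 of 9 epithelium, 4 of 8 smooth muscle, 3 of 16 skeletal muscle and 8 of 8 secretion markers lower, against 28.9% of all genes tested higher and 23.9% lower. Of the 14 leukocyte markers, 8 had a mean above 1 FPKM in WT-veh and all 14 in WT-DES, so the others were tested only through the group where they are high. The leukocyte markers summed to 82.1 to 144 FPKM in WT-veh and 600 to 1297 in WT-DES, the highest being sample 1, with 49.6 to 90.0 over both αERKO groups. The fibroblast markers summed to 836 to 999 FPKM in WT-veh and 2089 to 2379 in WT-DES, with 580 to 1118 over both αERKO groups. The epithelium markers summed to 2045 to 2302 FPKM in WT-veh, 1075 to 1324 in WT-DES and 1559 to 2567 in αERKO, and the calls on the epithelium and smooth muscle were mostly lost after quantile normalization (1 and 0 lower). The smooth muscle markers summed to 2695 to 3272 FPKM in WT-veh, with 2012 to 3001 over both αERKO groups. The adipose markers summed to 316 to 1421 FPKM in WT-veh, with 1190 to 2772 after DES in WT, and the skeletal muscle markers to 49.8 to 361 in WT-DES. Between the αERKO groups, where *Egr1* and *Klf2* did not overlap, the adipose markers summed to 200 to 1498 FPKM with vehicle and 71.4 to 128 with DES, which did not overlap either, and the skeletal muscle markers to 811 to 3236 and 601 to 870. No marker in these lists was at 0 in all samples of a group. In αERKO-veh relative to WT-veh, 7 of 16 skeletal muscle and 2 of 12 endothelial markers were higher, 1 of 14 leukocyte markers was lower, and no marker of the other lists was called, against 7.12% of all genes tested. The part of cell make-up in the members' changes was not tested.

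Heat shock genes rise with tissue stress. In WT-DES none of 12 was called higher and 4 were lower, among them *Hspb1* (log2 change −1.07, limma adjusted p = 0.00148) and *Hspe1* (−1.05, limma adjusted p = 1.62e-05), and none of the 12 was called in αERKO-veh, against all-gene shares of 28.9% higher and 23.9% lower in WT-DES and 7.12% called in αERKO-veh. Their sum was 906 to 950 FPKM in WT-veh and lower in all WT-DES samples, at 583 to 739, and it was 743 to 1088 in αERKO. When samples were rescaled without the 20 most abundant genes, 1 of the 12, *Hspe1*, was lower, and *Hspb1* (−0.64) was not called. After quantile normalization *Hspb1* (−0.65) was not called either.

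Genes of the same pathways were read from lists as counts, beside the all-gene shares of 28.9% higher and 23.9% lower in WT-DES. Some list genes were tested only through a group other than WT-veh, where 12 of the 14 AP-1 family genes, 27 of the 29 immediate early genes, 11 of the 12 *Klf* genes and 8 of the 10 AP-1 targets below had a mean above 1 FPKM. *Batf*, *Batf2*, *Egr2* and *Spp1* are among those tested only through WT-DES, where they are high, so their values are a description. Of 14 other AP-1 family leucine zipper genes tested, 9 were higher and 2 lower, with a median log2 change of 0.86 (all genes tested, −0.01; the 10 members, 0.71). *Batf* and *Batf2*, of lymphoid and myeloid cells, averaged 0.87 and 0.84 FPKM in WT-veh and 8.70 and 9.15 in WT-DES. The falls were in *Atf4* (−1.64), of the amino acid response, and *Jund* (−0.75), each with a limma adjusted p of at most 1.77e-05. The fall of *Jund* was lost under quantile normalization (−0.17) and rescaling (−0.32). Of 29 other immediate early genes, 11 were higher and 5 lower (median 0.36), and 18 and 4 (median 0.79) when samples were rescaled without the 20 most abundant genes. *Gadd45b* (1.71, limma adjusted p = 0.000162) rose, *Egr2* averaged 0.96 FPKM in WT-veh and 5.52 in WT-DES, and *Sgk1* (−2.64, limma adjusted p = 8.65e-08), a kinase of salt transport, and *Gadd45g* (−2.30, limma adjusted p = 2.74e-08) fell. Of 12 other *Klf* genes, 6 were higher and 3 lower (median 0.50), led by *Klf5* (2.10) and *Klf11* (1.5) against *Klf15* (−1.27) and *Klf16* (−0.81). On rescaling 9 were higher and 1 lower, and *Klf16* was under the fold limit (−0.41).

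Genes that act on the MAP kinase pathway were counted next. Of 16 MAP kinase phosphatase and Sprouty genes, which like *Dusp1* damp the signal, 9 were higher and 2 lower (median 0.55), with *Dusp2* (1.80) and *Dusp6* (1.10) up and *Dusp9* (−1.39) and *Dusp8* (−1.01) down, while 6 were higher and 3 lower after quantile normalization and 13 and 2 on rescaling without the 20 most abundant genes. Of 25 upstream kinases and SRF, TCF and CREB factors, 6 were higher and 2 lower (median 0.22), led by *Mef2c* (1.34) and *Mef2a* (1.12) against *Map2k2* (−1.25) and *Rps6ka1* (−0.74), with *Rps6ka1* not called after quantile normalization or rescaling, and on rescaling 14 were higher and 1 lower. Of 12 regulators of the decay of early transcripts, 2 were higher, *Zfp36l2* (1.58) and *Zfp36l1* (1.10), and 1 lower, *Tob1* (−1.34). Their median was −0.06, and 5 were higher and 1 lower after quantile normalization or rescaling. Of 10 AP-1 target genes tested, 6 were higher and 3 lower (median 1.24), with *Cd44* (1.94), also a gene of leukocytes, up and *Timp1* (−3.60), an inhibitor of matrix proteases, and *Plau* (−1.86) down. *Spp1*, likewise also a leukocyte gene, averaged 0.48 FPKM in WT-veh and 16.5 in WT-DES.

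**Figure D5:**
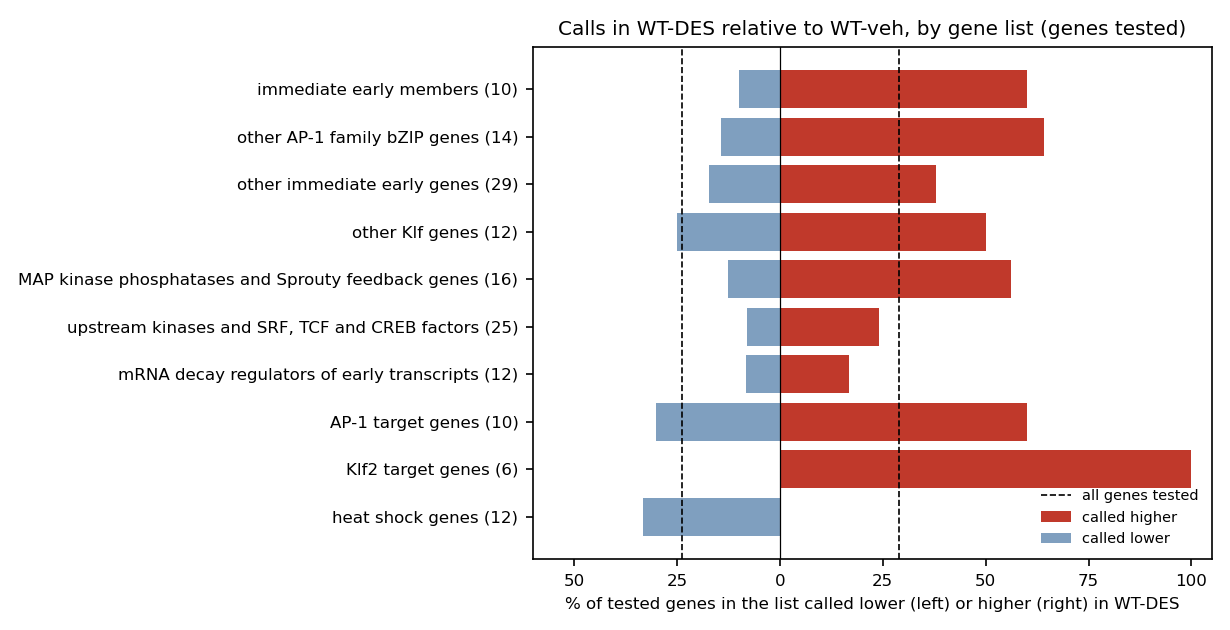
Share of the tested genes of each list called higher (right of 0) or lower (left of 0) in WT-DES relative to WT-veh, in % of the genes tested, whose number stands in brackets. Dashed lines give the same shares over all 15988 genes tested (28.9% higher, 23.9% lower). The 10 immediate early genes have 60% higher and 10% lower, and heat shock genes have none higher.

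In αERKO-DES relative to WT-DES, where 29.6% of all genes tested were lower and 23.7% higher, the lists had 9 of 14 AP-1 family genes lower and 2 higher, 12 of 29 immediate early genes lower and 6 higher, 5 of 12 *Klf* genes lower and 3 higher, 8 of 16 phosphatase and Sprouty genes lower and 4 higher, and 5 of 25 upstream genes lower and 4 higher. For the mRNA decay regulators the counts were 2 lower and 1 higher of 12, and for the AP-1 targets 6 lower and 3 higher of 10. On rescaling, 10 of 25 upstream genes were lower and 1 higher, and 5 of 12 decay regulators were lower and 1 higher. The counts lower and higher were then 17 and 3 for the immediate early genes and 10 and 2 for the phosphatase and Sprouty genes. For the *Klf* genes they were 7 and 2, for the AP-1 family 9 and 1, and for the AP-1 targets 6 and 3. In the interaction, against 29.6% of all genes tested positive and 26.9% negative, the counts were 9 positive and 2 negative for the AP-1 family, 11 and 5 for the immediate early genes, 7 and 2 for *Klf*, 8 and 3 for the phosphatases, 8 and 3 upstream, 2 and 1 for decay, 6 and 3 for AP-1 targets and 6 and 0 for *Klf2* targets. On rescaling they were 14 and 1 upstream, 6 and 1 for decay, 17 and 4 for the immediate early genes and 12 and 2 for the phosphatases. Between αERKO-veh and WT-veh, where 7.12% of all genes tested were called, 4 of 12 *Klf* genes and 6 of 25 upstream genes were called, all higher. The genes called were *Atf7* in the AP-1 family, *Nr4a3* (higher) and *Ier5l* and *Myc* (lower) among the immediate early genes, *Klf3*, *Klf5*, *Klf7* and *Klf9* (all higher), *Dusp4* (higher) and *Dusp9* (lower), 6 of the 25 upstream genes (all higher), and *Cd44* (higher) and *Timp1* (lower), named after their values were seen. No decay regulator or *Klf2* target was called there.

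The genes whose pattern over the 16 samples was most like that of 3 members were found by the root mean square difference of centred log2(FPKM + 1) profiles, among 8685 genes with a mean of at least 10 FPKM. For *Egr1* they were *Cdh5* (0.24), the cadherin of endothelial junctions, *Cd300lg* (0.25) and *Nrp1* (0.25). *Cdh5* was at 22.4, 35.8, 30.3 and 39.3 FPKM in WT-DES and at 12.7, 25.3, 14.3 and 15.7 in αERKO-veh, with the same low and high samples as *Egr1* in WT-DES and the same high sample in αERKO-veh. For *Fos* they were *Tnfaip8* (0.24), *Sema3f* (0.25) and *Ece1* (0.25). For *Klf2* they were *Taf10* (0.24), *Mocs3* (0.25) and *Cldn4* (0.26), and *Taf10*, a subunit of the general transcription factor TFIID, was at 38.9 ± 1.17 FPKM in αERKO-veh and 77.5 ± 7.16 in αERKO-DES.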

How the data were processed

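RNA-seq of the SV was analysed in 16 samples, 4 per group, grouped by the labels. The deposited FPKM values came from the authors' alignment to mm10 (TopHat2 2.0.4) and assembly (Cufflinks 2.0.2), and the gene annotation is not given in the sources used here. FPKM hold no counts, so precision rests on the spread between samples, which may come from pooled or single mice. Values were taken as log2(FPKM + 1) for 15988 genes whose mean passed 1 FPKM in a group, and fitted in R 4.3.3 with limma 3.58.1 as group means over all 16 samples, with eBayes (trended variance), and p was adjusted by Benjamini-Hochberg over all genes tested. Calls needed an adjusted p of at most 0.05, a 1.5-fold ratio of mean FPKM (for the interaction, a 1.5-fold difference) and a mean above 1 FPKM in 1 of the groups. Fold changes on this scale understate the change of low genes.

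The members and gene lists were chosen with earlier results of these data known. Named genes are all members, *Esr1*, at most 2 rising and 2 falling genes per list in the WT comparison, and the 3 genes most like *Fos*, *Egr1* and *Klf2*. Some genes under this rule are not reported here. Named outside it, after their values were seen, are *Fosl1* and *Fosl2* (AP-1 sums), and *Prdx2*, *Ergic1*, *Junos* and *Gm24748* (overlapping members). Also so named are *Itgam* and *Ptprc* (leukocyte markers compared within WT-DES), and the list genes named as called in αERKO-veh. Gene locations are from GENCODE M21 on GRCm38, and promoters from RefSeq. Alternatives were a pseudocount of 0.1, no minimum or one of 5 FPKM, an adjusted p of 0.01, no variance trend, sample weights, a replicate block, a fit of only the groups compared, median-ratio, quantile and rescaling without the 20 most abundant genes, corrections for length and GC content, and leaving out each sample. Same-numbered samples did not deviate together (r from −0.21 to 0.28 over 24 pairs). Steps were tested on simulated data. Python 3.11.15 with pandas 2.3.3 and matplotlib 3.10.9 served for tables and plots.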

Additional observations from a re-analysis of the deposited data

Results flagged for a closer look

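In the 40 groups of 4 samples compared (10 members in 4 groups), 2 held a sample far from the other 3 by the ratio of its gap to the whole range, above Dixon's critical value, and chance flags about 1 in 20. *Fosb* was at 5.25 FPKM in WT-veh sample 4 (ratio 0.982), the sample with the highest skeletal muscle marker sum of WT-veh (2612 FPKM). That sample also had the highest endothelial, epithelium, adipose and heat shock sums of WT-veh. *Atf3* was at 33.53 FPKM in αERKO-veh sample 3 (ratio 0.93). That sample had the highest heat shock sum (1088 FPKM) and the highest skeletal muscle marker sum (3236 FPKM) of all 16. The change with DES differed between WT and αERKO, by limma's interaction over all genes tested, for *Fos* (1.66), *Egr1* (1.94), *Atf3* (−1.79), *Klf4* (0.80), *Ier2* (−0.73) and *Dusp1* (0.93), whose errors and adjusted p are given above. These were 66.7% of the members tested, where 56.4% of all genes tested were called in either direction.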

How the results depend on the processing

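Of 693 values of 25 log2 differences of members (those called, those of *Ier2*, and *Fosb* and *Klf2* in WT), 672 kept direction and side of the thresholds over 28 alternatives (27 for the interaction), 11 lost a call and 10 turned direction. With the stricter adjusted p of 0.01 also counted, 14 calls of members were lost and 27 gained. Those gained were, in the interaction, *Junb* (14), *Jun* (5) and *Fosb* (1), in αERKO-DES relative to WT-DES *Fosb* (4), in αERKO-veh *Egr1* (2) and in WT *Fosb* (1). *Fosb* in WT turned to 0.26 (pseudocount 0.1), 0.44 (sample weights), 0.22 (rescaled) and 0.09 (GC correction), and ran from −0.20 to 0.54 over left-out samples. *Klf2* in WT turned to 0.03 on rescaling, and *Ier2* in αERKO-DES relative to WT-DES to −0.08 (quantile) and −0.07 (rescaled). Rescaling raises the median of all genes tested to 0.38 in WT-DES and 0.51 in the interaction by its construction. It moved the share of calls that were higher from 54.7% to 79.2% in WT, 63.1% to 92.4% in αERKO-veh, 44.5% to 23.6% in αERKO-DES and 52.4% to 78.8% in the interaction. The members called were 5 to 8 over left-out samples in WT-DES, 5 to 8 in αERKO-DES relative to WT-DES, 6 to 8 in the interaction and 0 to 1 in αERKO-veh, where sample weights gave 1 (*Egr1*); the cause was not tested. *Dusp1* in WT was not called in a fit of only the groups compared (limma adjusted p = 0.0706, 0.000201 to 0.0706 over its alternatives). Genes called in αERKO-veh, 1139 as reported, were 351 with the length correction, 689 with the GC correction, 402 at an adjusted p of 0.01, and 418 to 1691 over left-out samples, lowest without αERKO-veh sample 2. The replicate block changed no member's call, leaving 7, 7 and 6 members called in WT-DES, αERKO-DES and the interaction, and the numbers pair no samples by any label. With FPKM alone, the depth behind low genes such as *Fosb* is unknown.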
